A study of Mus musculus with 6 samples.

Results

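Type I interferon response genes are the genes that cells switch on when interferon-alpha or interferon-beta binds its receptor. The 41 genes described here were taken as a fixed list of symbols from the 48587 genes of the count table. Of these, 40 were found under their own symbol, and Ifi207 was found under its RefSeq synonym AI607873. They were ordered by role as transcription factors, the ISG15 system, nucleic acid sensors and effectors. The cells were sorted microglia, brain-resident macrophages, of Lyl1 knockout (Lyl1 KO, titled Mut) and wild-type mice, all C57BL/6 and at postnatal day 42, with 3 samples per genotype. Lyl1 encodes a transcription factor known from blood cell development. The labels name no interferon treatment or infection. The labels name neither the Lyl1 allele nor the sorting gate, and they do not say that the samples came from separate animals. P-values therefore rest on a sample-to-sample spread that may be technical in part. In C57BL/6 and most other inbred strains Mx1 and Mx2 carry alleles that yield no working protein, which limits these mice as a model for both genes.

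Interferon-alpha and interferon-beta bind the receptor of Ifnar1 and Ifnar2, whose kinases phosphorylate STAT2. STAT2 and IRF9 belong to ISGF3, the complex that binds the interferon-stimulated response element (ISRE) in the promoters of target genes. IRF7, itself a target, raises interferon production, so the loop amplifies itself. In the healthy brain a low tonic signal keeps part of this program on in microglia, and infection, nucleic acid leakage and ageing raise it.

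The ISRE letters are shown first, because the ISRE is the element that ISGF3 binds. RefSeq promoter windows on GRCm38.p6, from 250 bases before to 50 bases after a transcript start, were at hand for 31 members. Parp14, Rtp4, Zbp1, Ifi27l2a, Dhx58, Usp18, Mx1, Mx2, Ifi204 and Oas2 had no entry. The letters searched for the ISRE were GAAA, any 2 bases and GAAA again, on both strands with overlapping matches included, and 17 of the 31 members held them (54.8%), against 1079 of 27025 genes with a window (3.99%) and 278 of the 7653 tested genes with one (3.63%). The letters TTCNNNGAA, the core of the gamma-activated site, were held by 6 of the 31 members (19.4%) and by 9.55% of all genes. A match is a run of letters, not a site shown to be bound. The stretches below run 5′ to 3′ on the strand of the gene, with the ISRE match or its reverse complement in capitals. They were chosen to show the tandem matches of Isg15 and the Ifit genes beside the single or paired matches of Bst2, Slfn8, Trim30a and Cxcl10.
Isg15 (chr4:156200865-156200906, minus strand): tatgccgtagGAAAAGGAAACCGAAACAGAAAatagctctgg
Ifit1 (chr19:34640775-34640823, plus strand): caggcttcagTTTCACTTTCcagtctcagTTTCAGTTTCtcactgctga
Ifit3 (chr19:34583363-34583426, plus strand): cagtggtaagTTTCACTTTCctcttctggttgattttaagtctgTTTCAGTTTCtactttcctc
Ifit3b (chr19:34607759-34607822, plus strand): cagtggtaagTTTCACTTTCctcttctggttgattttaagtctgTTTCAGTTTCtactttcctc
Bst2 (chr8:71537577-71537612, minus strand): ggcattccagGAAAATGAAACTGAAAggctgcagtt
Slfn8 (chr11:83020839-83020868, minus strand): atttgagcagTTTCGTTTTCcccaaaagca
Trim30a (chr7:104465210-104465239, minus strand): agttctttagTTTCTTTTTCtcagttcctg
Cxcl10 (chr5:92349083-92349112, minus strand): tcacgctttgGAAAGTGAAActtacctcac

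**Figure D1:**
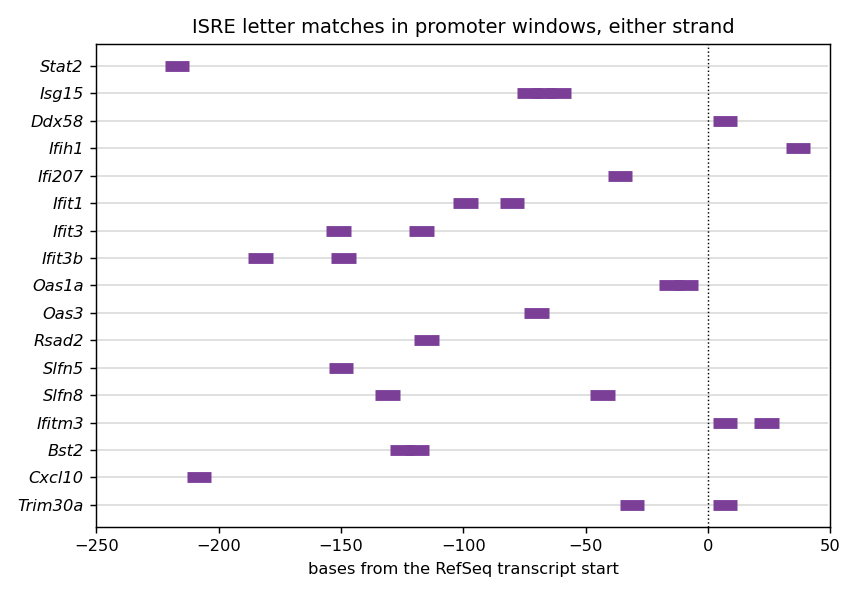
Positions of matches to the ISRE letters on either strand (bars) in the 300-base promoter windows of the 17 members that hold one, in bases from the RefSeq transcript start (dotted line). Slfn8 and Trim30a have more than 1 annotated start, and each match is drawn from the start of its own window. Most matches lie before the start, while those of Ddx58, Ifih1 and Ifitm3 and 1 of Trim30a lie just after it.

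The 64-base stretches of Ifit3 and Ifit3b were identical to each other, and their 250-base upstream windows matched at 216 of 224 aligned positions (96.4%). Isg15 carried 3 overlapping matches, Ifit1 carried 2 and Bst2 carried 2. Of the 8 members with a window and more than 3 reads in every library, 3 held the letters, against 14 of the 23 members missing from at least 1 library.

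Knockout libraries held 22259533, 19205948 and 27305558 reads in genes and wild-type libraries 12753945, 27378614 and 19632530. Lyl1 itself lay at 9.03, 12.0 and 14.3 CPM in knockout and at 60.2, 55.6 and 40.0 CPM in wild type, where CPM are counts scaled to library size with TMM factors. The 9 microglia markers summed to between 40962 and 44882 CPM in knockout and between 41556 and 45661 CPM in wild type. Single markers differed within that sum. P2ry12 was higher in every knockout sample (ratio of means 1.16, knockout over wild type) and Fcrls lower in every one (0.61). The genotypes overlapped in the other microglia markers. Neutrophil markers summed to at most 0.209 CPM in knockout and 3.26 CPM in wild type, monocyte markers to at most 6.91 CPM in knockout and 1.499 CPM in wild type, and T and NK cell markers to at most 0.0440 CPM in knockout and 0 CPM in wild type. B cell markers summed to at most 0.102 CPM in knockout and 1.38 CPM in wild type. The markers S100a8, Ngp, Ly6g, Cd3e and Trac were at 0 reads in every library, but others were not. The neutrophil marker S100a9 had 82 reads in wild-type sample 2 and 9 in wild-type sample 3. The monocyte marker Ccr2 had 155, 3 and 93 reads in knockout and 1, 2 and 0 in wild type. Of the plasmacytoid dendritic cell markers, Ly6d and Klk1 were at 0 and Ccr9 at 3 reads or fewer, while Tcf4 and Irf8 are also expressed by microglia. Border-associated macrophage markers summed to between 0.457 and 10.3 CPM in knockout and to between 0.437 and 95.8 CPM in wild type, the highest value being nearly all Mrc1 in wild-type sample 1. Oligodendrocyte markers summed to between 51.9 and 92.8 CPM in knockout and to between 40.8 and 225 CPM in wild type, and endothelial markers to between 27.2 and 61.6 CPM in knockout and to between 28.5 and 180 CPM in wild type, both highest in wild-type sample 1. Globin and other erythrocyte markers reached 227 CPM in knockout, in sample 1, and 1.23 CPM in wild type. Knockout samples had 349, 0.203 and 412 CPM of Xist, the RNA of the inactive X chromosome, against 1.41, 0.397 and 0.382 CPM in wild-type samples. Xist was thus high in knockout samples 1 and 3 alone. Kdm5d, a gene of the Y chromosome, ran the other way, with 2, 385 and 2 reads in knockout and 81, 3908 and 326 in wild type. By these genes knockout samples 1 and 3 read as female and the other samples as male. Sex and genotype were thus partly confounded. The part of sex in the results was not tested beyond a fit with Xist as a covariate. In bulk RNA of sorted cells, fewer cells of a type and less RNA per cell cannot be told apart.

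No interferon response gene passed the test between Lyl1 knockout and wild-type microglia. The samples of the genotypes overlapped in every tested member but Irf9, and Irf9 (higher in knockout) and Bst2 (lower in knockout) had the smallest p. Of the 41 members 25 passed the filter on low counts, and edgeR's quasi-likelihood test with Benjamini-Hochberg adjustment called 0 of them higher and 0 lower. The same test called 0% of all 10394 tested genes higher and 0% lower, so the members' count equals the background. Lyl1 itself was not called either (log2 fold change -2.14, SE 0.98, edgeR, unadjusted p = 0.0609), though its genotypes did not overlap. The common biological coefficient of variation in edgeR was 1.27. The absence of calls thus does not show that levels were equal. DESeq2 and limma-voom also called 0 members, and 0 were reached at any of the settings tried. Over all genes DESeq2 called 52 of 10394, and edgeR without the filter on low counts called 8 of 22005. At an unadjusted p under 0.05 edgeR in the reported fit had 0 members in either direction, against 1.16% of all tested genes higher and 1.67% lower. Some other fits had members under that p. The most were 3 higher and 2 lower, in edgeR without the filter on low counts, where 895 of 22005 genes were higher and 768 lower. Of the 25 members 14 had a higher and 11 a lower fitted level in knockout, with a median log2 fold change of 0.23, beside -0.03 over all tested genes. Over the same 25 members the median was 0.38 without knockout sample 1, -0.01 without knockout sample 2 and 0.18 without knockout sample 3. It was -0.28 without wild-type sample 1, 0.69 without wild-type sample 2 and 0.53 without wild-type sample 3, so its sign rested on single libraries. The smallest adjusted p among the members was 0.9999 in the reported edgeR fit, 0.739 in DESeq2 and 0.722 in limma-voom. With edgeR it was 0.651 without the filter on low counts and 0.435 without wild-type sample 3.

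**Figure D2:**
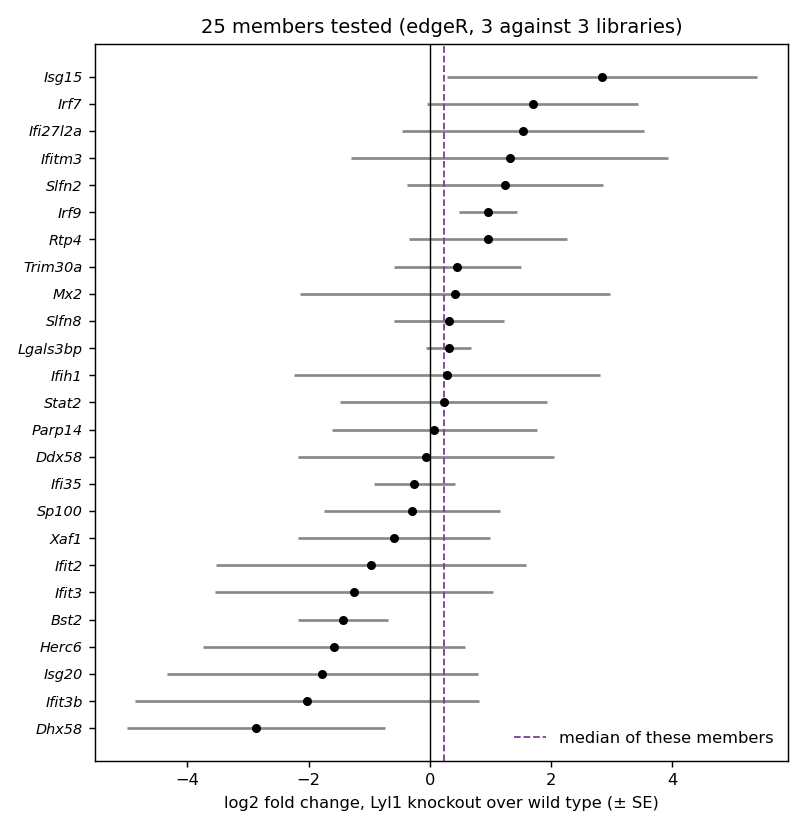
Log2 fold change of Lyl1 knockout over wild type with its standard error for the 25 members tested, fitted by edgeR over 3 knockout and 3 wild-type libraries. The dashed line is the members' median of 0.23. Standard errors run from 0.37 for Lgals3bp to 2.84 for Ifit3b, and no member had an unadjusted p under 0.05.

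Among the transcription factors, Irf9 was the member with the smallest p. Irf9, the DNA-binding subunit of ISGF3 (GRCm38 chromosome 14, 55603571 to 55610030, plus strand), was at 196, 100.7 and 109.7 CPM in knockout and at 70.7, 74.9 and 62.9 CPM in wild type. All knockout samples thus lay above all wild-type samples. The means were 135 ± 52.6 CPM in knockout and 69.5 ± 6.08 CPM in wild type (SD, n = 3 each), a ratio of 1.95. This corresponds to a log2 fold change of 0.96 (SE 0.48), for which edgeR gave an unadjusted p of 0.0804. An exact permutation test, 2-sided, gave 0.1, which no split of 3 against 3 can go below. Without knockout sample 1 the log2 fold change was 0.60, and with the Xist level as a covariate it was 0.58. Of the 25 tested members 1, Irf9, had all knockout samples above all wild-type samples, against 5.97% of all tested genes, and 0 had all of them below, against 5.19%. A stretch of 123 exon bases of Irf9 is shared with Rnf31 on the same strand.

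Irf7, which drives interferon-alpha production, was at 39.0, 17.8 and 6.43 CPM in knockout and at 0.264, 7.67 and 11.6 CPM in wild type. Its highest values were those of knockout samples 1 and 2, but the genotypes overlapped, and the log2 fold change of 1.69 had a standard error of 1.73 (edgeR, unadjusted p = 0.358). Stat2, the ISGF3 subunit that carries the transactivating domain, was at 80.8, 15.6 and 12.9 CPM in knockout and at 0.0882, 48.7 and 44.6 CPM in wild type. Wild-type sample 1 was near 0 for both Irf7, with 3 reads, and Stat2, with 1 read, in a library where Irf9 had 802 reads.

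The ISG15 system attaches the ubiquitin-like protein ISG15 to newly made proteins and removes it again. Isg15 had 385, 115 and 58 reads in knockout and 0, 0 and 72 in wild type. It was thus present in every knockout library and in 1 wild-type library, where it overlapped the knockout range. Its log2 fold change of 2.84, the highest among the members, had a standard error of 2.55 (edgeR, unadjusted p = 0.299). Herc6, the main ISG15 ligase in mice, lay the other way at 12, 2 and 358 reads in knockout and at 15, 205 and 622 in wild type. Usp18, the protease that removes ISG15 and damps the receptor, had 0, 0 and 518 reads in knockout and 1, 0 and 240 in wild type, and it did not pass the filter. Reads for Usp18 thus came from knockout sample 3 and wild-type sample 3.

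The RNA sensors of the RIG-I family each had 3 reads or fewer in at least 1 wild-type library. Ddx58, which encodes RIG-I, was at 0.0440, 15.0 and 66.4 CPM in knockout and at 0.264, 37.6 and 47.3 CPM in wild type, from 1 to 1910 reads. The genotype means of 27.2 and 28.4 CPM differed by far less than the spread within either. Ifih1, which encodes the long double-stranded RNA sensor MDA5, had 37, 387 and 372 reads in knockout and 1, 0 and 585 in wild type. Dhx58, the family member LGP2, was at 8.19, 0.356 and 17.2 CPM in knockout and at 0.0882, 166 and 22.7 CPM in wild type. Its log2 fold change of -2.87, the lowest among the members, came with a standard error of 2.13 (edgeR, unadjusted p = 0.216), and without wild-type sample 2 it was -0.39.

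The remaining sensors were scarcer. Zbp1, a sensor of Z-form nucleic acid that can start necroptosis, had 0, 1 and 122 reads in knockout and 0, 1 and 96 in wild type. Ifi204, a PYHIN family member that binds DNA, had 0, 0 and 272 reads in knockout and 0 in each wild-type library. Ifi207 of the same family had 0, 2 and 1 reads in knockout and 0, 0 and 85 in wild type. The families are not cleanly separable, since 30.2% of the 50-base windows of the longest Ifi204 transcript also occur in transcripts of other genes, Ifi211 first among them.

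Some Ifit proteins bind viral RNA with foreign ends, and the genes of the family stand side by side on chromosome 19. Ifit3 was at 0.0440, 8.44 and 33.1 CPM in knockout and at 0.0882, 87.0 and 11.7 CPM in wild type. Ifit3b followed it library by library, with 0, 8 and 351 reads beside 1, 166 and 952 of Ifit3 in knockout, and with 0, 1148 and 119 reads beside 1, 2191 and 246 in wild type. Both genes thus peaked in wild-type sample 2 and had at most 1 read in knockout sample 1 and wild-type sample 1. Of the 50-base windows of Ifit3, 51.2% also occur in Ifit3b, so reads of 50 cycles cannot be assigned between them with certainty. Their neighbours matched them in part. Ifit1 shared the peak and was at 0 CPM in each knockout library, against 0.176, 90.9 and 0 CPM in wild type. Ifit2 had 23, 1 and 174 reads in knockout and 0, 2 and 292 in wild type, and so was nearly missing from the library with the most Ifit1 and Ifit3. All 3 tested Ifit genes had negative log2 fold changes, from -2.02 to -0.98, and the sign of each turned without a single wild-type library. Without wild-type sample 2 the log2 fold change was 1.24 for Ifit3 and 0.57 for Ifit3b, and without wild-type sample 3 it was 5.58 for Ifit2, which also turned to 1.00 with limma-voom.

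The oligoadenylate synthetases, which activate the RNA-degrading enzyme RNase L, were the least detected group. None of the 5 Oas members passed the filter. Oas3 had 0 reads in every library, which allows up to 3 reads per library or 0.104 to 0.264 CPM. Oas2 had 1 read at most. Oas1a, with windows shared at 57.6% with Oas1g and Oas1b, had 0, 0 and 115 reads in knockout and 1, 0 and 67 in wild type. The synthetase-like genes Oasl1 and Oasl2 are neighbours on chromosome 5. Oasl1 had 121 reads in wild-type sample 3 and 0 elsewhere. Oasl2 had 420 reads in knockout sample 3 and 4 reads or fewer elsewhere, so the pair were not found together.

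Of the other effectors, Slfn8 and Slfn2 of the Schlafen family had the most reads. Slfn8 was at 37.2, 61.2 and 44.4 CPM in knockout and at 18.0, 72.1 and 24.6 CPM in wild type. Slfn2, which protects transfer RNA in stressed immune cells, was at 55.7, 62.1 and 79.5 CPM in knockout and at 70.5, 0.0795 and 12.8 CPM in wild type. The means of Slfn2 were 65.8 ± 12.3 CPM in knockout and 27.8 ± 37.5 CPM in wild type (SD, n = 3 each), and wild-type sample 1 lay within the knockout range. Slfn5 had 0, 168 and 172 reads in knockout and 0 in each wild-type library, below the filter. Isg20, a 3′ exonuclease, had 0, 99 and 62 reads in knockout and 0, 431 and 156 in wild type. Rsad2, which encodes viperin, and Cmpk2, a mitochondrial nucleotide kinase, are divergent neighbours on chromosome 12. Rsad2 had 1, 618 and 0 reads in knockout and 0, 88 and 0 in wild type, while Cmpk2 had 1 read in the whole table.

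Lgals3bp stood out among the members by its level per length in both genotypes, and Bst2 did so in wild type. Bst2 encodes tetherin, which holds budding virions at the cell surface (chromosome 8, 71534255 to 71537456, minus strand). It was at 25.3, 21.2 and 72.7 CPM in knockout and at 142, 53.5 and 128 CPM in wild type. Knockout samples 1 and 2 were below every wild-type sample, whereas knockout sample 3 was above wild-type sample 2. The means were 39.7 ± 28.6 CPM in knockout and 108 ± 47.4 CPM in wild type (SD, n = 3 each). The log2 fold change of -1.44 had a standard error of 0.74 (edgeR, unadjusted p = 0.0909), and it stayed negative under each alternative, from -2.31 to -1.12. The exact 2-sided permutation p was 0.2. Ifitm3, which blocks virus entry at endosomes, had 0, 791 and 310 reads in knockout and 2, 8 and 419 in wild type. Mx1 had 0, 0 and 304 reads in knockout and 1, 0 and 357 in wild type. Mx2, its neighbour on chromosome 16, had 797, 0 and 446 reads in knockout and 0, 731 and 185 in wild type.

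Lgals3bp, a secreted glycoprotein that binds galectins, had the most reads of any member and the smallest ratio of highest to lowest library among the 10 members found in every library. It was at 308, 433 and 277 CPM in knockout and at 160.4, 384 and 277 CPM in wild type, with overlapping genotypes (log2 fold change 0.31, SE 0.37). Per kilobase of the longest coding transcript the mean of Lgals3bp was 146 CPM in knockout and 117 CPM in wild type, that of Bst2 was 50.2 CPM in knockout and 136 CPM in wild type, and that of Ifi35 was 45.3 CPM in knockout and 54.1 CPM in wild type. These genes held ranks 1, 2 and 4 of 41 in knockout and 2, 1 and 3 in wild type on that scale, and Irf9 held rank 3 in knockout and rank 5 in wild type. The chemokine Cxcl10, which draws T cells, was near 0 in contrast, with 0, 0 and 168 reads in knockout and 0, 0 and 24 in wild type.

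The last group, of interferon-induced genes with varied roles, was present in every library for 6 of its 8 genes. Ifi35, a partner of Nmi, was at 45.8, 62.8 and 76.5 CPM in knockout and at 98.6, 32.5 and 90.1 CPM in wild type. Trim30a, a tripartite motif protein that limits NF-kB signalling, was at 51.3, 112 and 66.5 CPM in knockout and at 3.61, 90.2 and 74.1 CPM in wild type. Rtp4, a chaperone of G protein-coupled receptors, was at 38.8, 99.0 and 8.52 CPM in knockout and at 4.32, 54.3 and 16.5 CPM in wild type. Within each of these genes the genotypes overlapped. The nuclear body protein Sp100 was at 6.65, 51.5 and 16.8 CPM in knockout and at 3.09, 73.4 and 15.5 CPM in wild type. The ADP-ribosyltransferase Parp14 was at 1.10, 20.2 and 57.8 CPM in knockout and at 1.15, 30.3 and 43.5 CPM in wild type. Xaf1, a pro-apoptotic binder of XIAP, was at 22.6, 0.457 and 47.6 CPM in knockout and at 6.08, 55.7 and 45.2 CPM in wild type. Sample 1 of each genotype thus had the lowest Sp100 and Parp14. The log2 fold changes of these 6 genes ran from -0.60 for Xaf1 to 0.96 for Rtp4. Ifi27l2a, a small mitochondrial membrane protein gene, had 186, 162 and 288 reads in knockout and 6, 1 and 179 in wild type. Ifi44 had 182 reads in knockout sample 3 and 0 elsewhere.

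**Figure D3:**
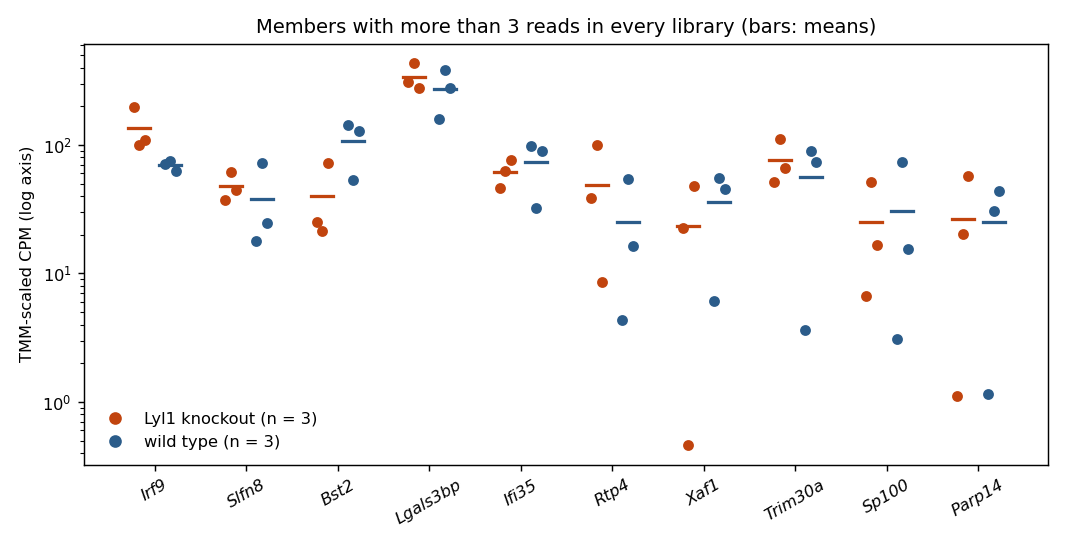
TMM-scaled CPM (log axis) of the 10 members with more than 3 reads in every library, in Lyl1 knockout samples (left, n = 3) and wild-type samples (right, n = 3), with means as bars. Irf9 is the 1 gene whose knockout samples all lie above the wild-type samples, while Rtp4, Xaf1, Trim30a, Sp100 and Parp14 spread over more than 10 times.

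More than 3 reads in every library were found for 10 of the 41 members (24.4%), against 28.8% of the 22005 genes with a read. They were Irf9, Slfn8, Bst2, Lgals3bp, Ifi35, Rtp4, Xaf1, Trim30a, Sp100 and Parp14. The ratio of highest to lowest library ran from 2.70 for Lgals3bp and 3.12 for Irf9 to 122 for Xaf1. Their median coefficient of variation was 56.6% in knockout and 75.3% in wild type, beside 39.6% and 59.1% for the 6287 tested genes with more than 3 reads in every library. Of the rest, 3 members were at 3 reads or fewer in all libraries, 5 were above that in 1 library and 8 in 2. Among the 16 members with a mean of 10 to 50 CPM, 11 were at 3 reads or fewer in at least 1 library (68.8%), and so were 2226 of the 4546 genes at that level. At 50 CPM or more none of 5 members and 3.23% of 3594 genes were.

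**Figure D4:**
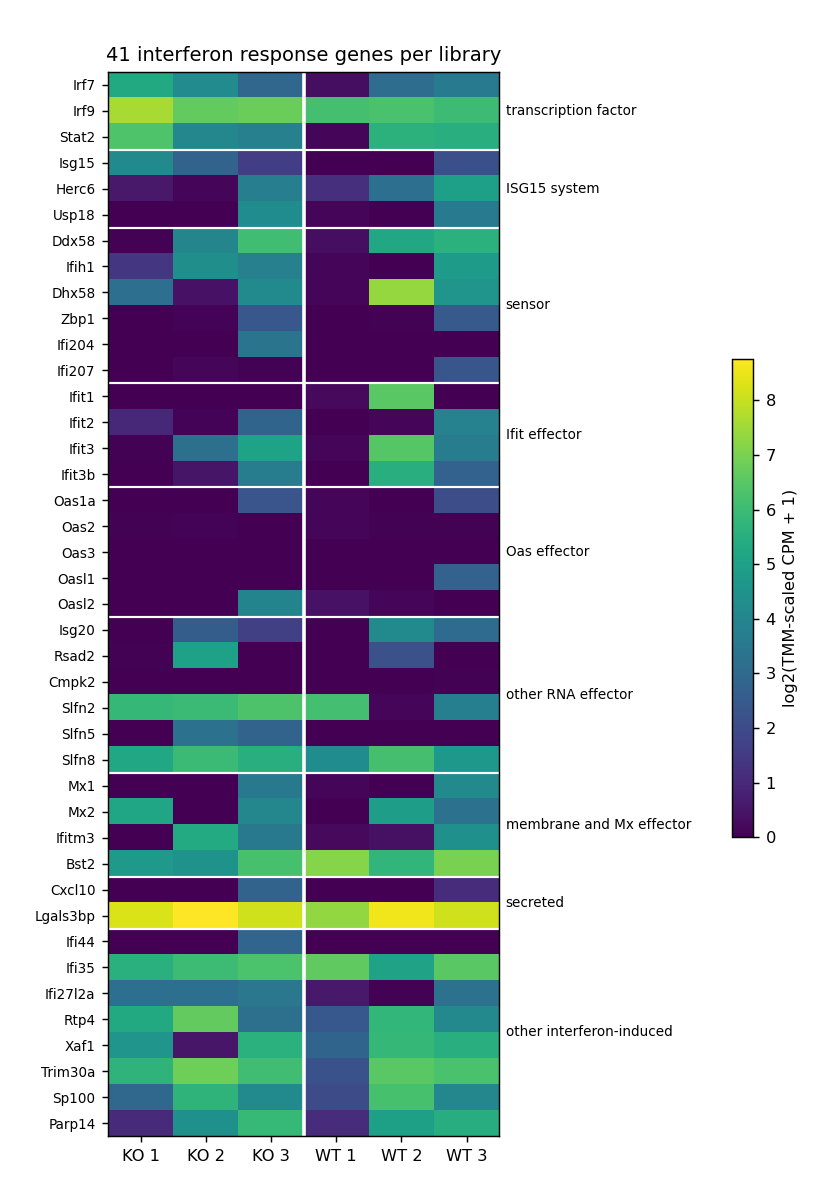
Log2(TMM-scaled CPM + 1) of the 41 members, in rows by role, in the 3 Lyl1 knockout libraries (left) and the 3 wild-type libraries (right). Lgals3bp and Irf9 are bright throughout, and Ifi35 and Bst2 are so to a lesser extent. The rows of Oas2, Oas3 and Cmpk2 are dark, and most of the remaining rows change from library to library within a genotype.

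How many members were seen depended on the library more than on the genotype. More than 3 reads were found for 20, 24 and 34 members in knockout samples 1 to 3 and for 14, 22 and 32 members in wild-type samples 1 to 3. The same counts resulted with a common floor of 0.264 CPM, the level of 3 reads in the shallowest library. Knockout sample 3 and wild-type sample 3 also had the most genes of all kinds above 3 reads, 58.6% and 56.6% of the 22005 genes with a read, against 47.4% and 48.3% in knockout samples 1 and 2 and 42.1% and 42.5% in wild-type samples 1 and 2. For the members the shares were 82.9% and 78.0% in those fuller libraries, 48.8% and 58.5% in knockout samples 1 and 2 and 34.1% and 53.7% in wild-type samples 1 and 2. The part that this wider detection has in the members' pattern was not tested. Total reads do not order the libraries in the same way, since wild-type sample 2 had the most reads and 22 members.

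**Figure D5:**
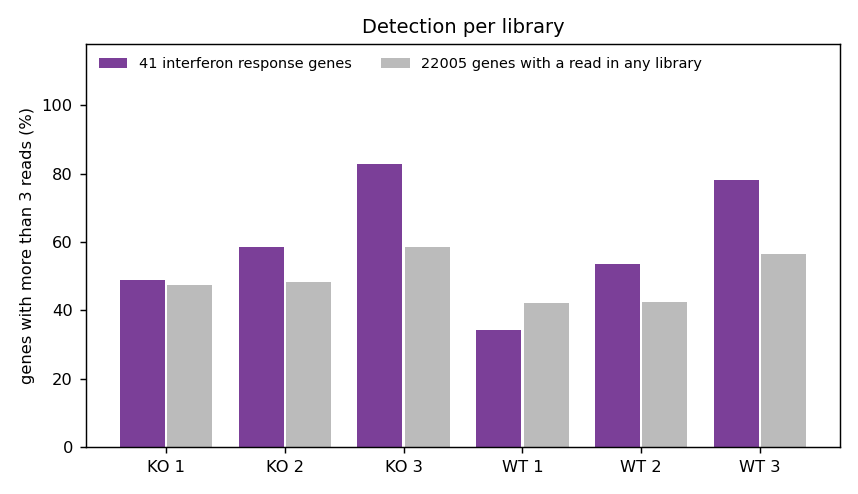
Share of genes with more than 3 reads in each library, for the 41 members (purple) and for the 22005 genes with a read in any library (grey), with the knockout libraries on the left. Knockout sample 3 (82.9%) and wild-type sample 3 (78.0%) are highest for the members, and they are also highest for all genes.

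Of the 8 members above 3 reads in exactly 2 libraries, 5 were in knockout sample 3 and wild-type sample 3, namely Usp18, Zbp1, Oas1a, Mx1 and Cxcl10. The same pair of libraries held 539 of the 1763 genes with that number (30.6%), more than any other pair. The summed level of the 41 members was 980, 1201 and 1157 CPM in knockout and 582, 1463 and 1100.2 CPM in wild type. Most of it came from the 10 members found everywhere, at 733, 962 and 778 CPM in knockout and 508, 921 and 777 CPM in wild type. The other 31 summed to 247, 239 and 379 CPM in knockout and to 74.3, 542 and 323 CPM in wild type. Wild-type sample 1 was lowest in all 3 sums, and wild-type sample 2 was highest in the sums over 41 and over 31 members.

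The remaining pathway, 76 genes listed apart from the members, was described in the same fit. Of these 49 were tested, 24 with a higher and 25 with a lower fitted level in knockout, and edgeR called 0. Of the 8 ligand genes listed, Ifnk, a type I interferon of skin, had 77 reads (3.91 CPM) in knockout sample 2 and 0 elsewhere. The other ligand genes, Ifnb1, Ifna1, Ifna2, Ifna4, Ifna5, Ifne and Ifng, had 0 reads in every library, which allows up to 3 reads in each. The receptor chain Ifnar1 was at 72.1, 23.3 and 96.1 CPM in knockout and at 89.6, 85.1 and 117 CPM in wild type. The other chain, Ifnar2, was at 248, 279 and 370 CPM in knockout and at 397, 388 and 293 CPM in wild type. Receptor transcripts were thus present in all libraries of both genotypes. The receptor kinase Jak1 was at 459, 111 and 136 CPM in knockout and at 22.5, 57.8 and 174 CPM in wild type.

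At an unadjusted p under 0.05 the 49 tested pathway genes held 2, both lower in knockout and neither past the adjusted threshold, against 1.16% of all tested genes higher and 1.67% lower. Parp12, an ADP-ribosyltransferase, was at 56.0, 85.5 and 103 CPM in knockout and at 581, 232 and 59.3 CPM in wild type (log2 fold change -1.83, SE 0.75). Its wild-type sample 3 lay within the knockout range. The chemokine Ccl12 averaged 105 ± 18.5 CPM in knockout and 191 ± 29.3 CPM in wild type, without overlap (log2 fold change -0.86, SE 0.36). Next by p came Ifngr2, a chain of the interferon-gamma receptor, at 426 ± 84.7 CPM in knockout and 292 ± 11.1 CPM in wild type, also without overlap. The factor Irf5 averaged 590.1 ± 68.8 CPM in knockout and 828 ± 205 CPM in wild type, and the DNA-sensing adaptor STING (Tmem173) averaged 982 ± 125 CPM in knockout and 1252 ± 239 CPM in wild type, each with overlapping samples. Tap1, the peptide transporter of antigen presentation, averaged 107 ± 23.7 CPM in knockout and 24.5 ± 29.2 CPM in wild type, and the immunoproteasome subunit Psmb9 averaged 83.2 ± 22.7 CPM in knockout and 134 ± 14.3 CPM in wild type, both without overlap. Among the 49 genes 3 had all knockout samples above and 3 all below the wild-type samples, near the 5.97% above and 5.19% below among all tested genes. The 8 genes of smallest p at 20 CPM or more, Jak1 among them, thus lay in both directions.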

How the data were processed

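About 1000 FACS-sorted microglia per sample gave total RNA, of which 0.3 to 1.0 ng was reverse transcribed with a SMARTer kit, amplified over 14 or 15 PCR cycles and sequenced as single reads of 50 cycles, per the labels' protocols. The kit does not mark strand, and PCR copies are counted as separate reads. The authors deposited 1 table of raw, unnormalised counts, with 1 row per gene symbol. Listed without roles in the submitters' processing notes are GRCm38, featureCounts 1.5.1, Subread, STAR 2.5.2b, limma 3.28.21 and CASAVA 1.8.2. How reads matching several genes were counted is not stated.

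The 92 ERCC entries were left out. In R 4.3.3, edgeR 4.0.16 kept 10394 genes (filterByExpr, minimum count 10, minimum total 15), scaled by TMM and fitted genotype alone with the quasi-likelihood F test, 2-sided, Benjamini-Hochberg threshold 0.05. The code was tested on simulated data. CPM are means ± SD over 3 samples. A count of 0 allows up to 3 reads, which covers counting error only. Alternatives used limma 3.58.1, DESeq2 1.42.0, other scalings, filters and designs, and each sample left out. Values per sample were given for members at 20 CPM or more in a genotype. The others were given in reads. Among the members, fold change with SE and p was given in the text for Irf9, Bst2, Dhx58, Irf7 and Isg15, and without p for Lgals3bp. For other members a fold change was given where its sign or extent is described. This choice was made with values in view. Up to 8 other pathway genes at 20 CPM or more were named by p, and Ifnar1, Ifnar2 and the ligands were added with values in view. Positions and lengths are from GENCODE M21 on GRCm38. In that annotation 12 members share exon bases with another gene. The members and all gene lists were chosen with earlier results of these data known. One gene of the pathway is not reported here.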

Additional observations from a re-analysis of the deposited data

How the results depend on the processing

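No alternative setting called a member, DESeq2 and limma-voom included. Over all genes the calls were 0 except without the filter on low counts (8 of 22005 genes) and with DESeq2 (52 of 10394 genes). Leaving out 1 sample gave 0 calls each time, and the members' median log2 fold change then ran from -0.20 to 0.66 over the 26 to 32 members that passed the filter in each of those fits. Over the 25 members of the reported fit it ran from -0.28 to 0.69. It was -0.20 with the Xist level as a covariate, where the median of all genes was -0.27. That median of all genes, -0.03 in the reported fit, was 0.09 with upper-quartile scaling, 0.18 with the replicate block and 0.20 with limma-voom. Of the 41 members 16 did not pass the filter and were not tested. These were the members above 3 reads in 2 libraries or fewer, and no gene found in so few libraries was tested. Some had many reads in 1 library, such as Ifit1 with 2287 in wild-type sample 2.

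Of the 25 tested members 11 kept their sign in each fit that held them and 14 turned at least once, none of them called. The sign turned in 37 of 372 comparisons of a member's value in an alternative fit with the reported one. The cause was not tested. Isg15 and Ifit2 had no value with the filter at a mean of 5 CPM. Ifi27l2a had no adjusted p with DESeq2 and was left out of that comparison. Ddx58 turned to 0.028 with upper-quartile scaling and 0.0031 with library size. With limma-voom Ifit2 was at 1.00, Ifi35 at 0.10 and Parp14 at -0.39. With Xist as a covariate Stat2 was at -0.79, Mx2 at -10.16, Sp100 at 0.79 and Parp14 at -0.20. With the replicate block Stat2 was at -0.14, Ifit2 at 0.64, Ifitm3 at -0.17, Sp100 at 0.23 and Parp14 at -0.079. Leaving out each sample in turn gave Stat2 from -1.13 to 0.72, Ddx58 from -1.92 to 0.53, Ifih1 from -0.35 to 8.02, Ifit2 from -3.13 to 5.58, Ifit3 from -2.96 to 1.24, Ifit3b from -6.36 to 0.57, Slfn8 from -0.012 to 1.18, Mx2 from -0.71 to 1.94, Ifitm3 from -0.34 to 6.07, Ifi35 from -0.59 to 0.022, Rtp4 from -0.065 to 2.25, Trim30a from -0.088 to 1.00, Sp100 from -1.38 to 1.45 and Parp14 from -1.24 to 0.75.

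Samples with the same number did not deviate together from their genotype means (r of -0.00061, -0.013 and -0.043 over 6534 genes). Pairs with different numbers also lay near 0, from -0.0078 to 0.029. This r can be near 0 for libraries alike in level, so it does not settle whether the replicate block pairs related samples. In level, however, knockout sample 3 and wild-type sample 3 were the most alike of all pairs of libraries. Their r in log2 CPM was 0.81, with 21.2% of genes more than 2-fold apart. For samples 1 and 2 of the genotypes r was 0.38 and 0.41. The replicate block left the calls at 0.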
